A study of Mus musculus with 58 samples.

Results

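The comparison concerns the first hours of the light phase in the diabetic mouse retina. Retinas of diabetic mice collected at zeitgeber time 5 (ZT5, 5 h after lights on) were set against retinas of diabetic mice collected at ZT1, with 5 libraries at each time. The members were taken by their labels, as the 10 of 58 libraries of the series that were labelled diabetic and ZT5 or ZT1. All 10 came from male, heterozygous C57BL/6-Ins2Akita/J mice, 4 months old, that had lived since birth in a 12 h light and 12 h dark cycle. The 5 control libraries at ZT1 and 6 at ZT5, used only to show where the diabetic change differed, came from male littermates without the mutation, of the same age and housing. Mice of both genotypes were perfused with cold buffer before the eyes were removed, and RNA depleted of ribosomal RNA was sequenced from single retinas. The model carries a misfolding insulin 2, which destroys the beta cells of the pancreas, and it therefore gives insulin-deficient diabetes that is more severe in males than in females. The question was which transcripts differed in the diabetic retina between the start and the middle of the morning.

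The morning retina leaves a period in which rods are active and their energy demand is high, and it faces sustained light. Light drives the immediate early genes, which encode transcription factors made within minutes of a stimulus and lost again within hours. It also sets the retinal clock, in which CLOCK and BMAL1 (Arntl) switch on genes for their own repressors, the Period and Cryptochrome proteins. In photoreceptors, cyclic AMP falls in light and climbs in darkness, and adenylyl cyclases make it while phosphodiesterases break it down.

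Few transcripts passed the test between ZT1 and ZT5. Of 19120 genes tested with edgeR's quasi-likelihood test, 4 had a Benjamini-Hochberg adjusted p under 0.05, which is 0.0209% of the genes. Of these, 2 were higher and 2 lower at ZT5 (0.0105% of the genes in each direction). The 2 lower genes were Egr3, an immediate early transcription factor, and Pde8b, a phosphodiesterase specific for cyclic AMP. The 2 higher genes were Adcy1, a calcium-stimulated adenylyl cyclase, and Utp20, a component of the machinery that processes the small ribosomal subunit RNA. At an unadjusted p under 0.05 there were 761 genes (3.98%), with 360 higher (1.88%) and 401 lower (2.1%). The libraries of the 2 times did not overlap for 203 genes (1.06%), 95 of them higher and 108 lower at ZT5. The median fitted log2 difference over all genes tested was 0.003.

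Total counts were 10223817 to 19441932 per library at ZT1 and 8588878 to 18287074 at ZT5. The summed level of 6 rod markers, in normalised read counts (counts divided by a size factor of the library), was 553232 to 597129 at ZT1 and 508139 to 684815 at ZT5, and the highest value was that of ZT5 replicate 4. Markers of cones, Müller glia, bipolar, amacrine, horizontal and ganglion cells, vessels and microglia were all detected in each group, with overlapping sums. Lens markers summed to 1049 in ZT1 replicate 3 and 239 in replicate 5, against 40.2 to 127 in the other ZT1 libraries and 30.0 to 69.1 at ZT5, and 1 of the 11 lens markers was at 0 in all 10 libraries. Blood markers summed to 190 in ZT1 replicate 5 and to at most 27.7 in the other 9 libraries. Without ZT1 replicates 3 and 5 no gene passed in edgeR, and 531 genes had an unadjusted p under 0.05, while the log2 differences of the 4 genes were -1.50 for Egr3, -0.28 for Pde8b, 0.26 for Adcy1 and 0.33 for Utp20. Without ZT1 replicate 5 alone no gene passed either, and 600 genes had an unadjusted p under 0.05. In bulk tissue, fewer cells of a type and less RNA per cell cannot be told apart.

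The promoters of 3 of the 4 genes were taken from RefSeq in the GRCm38.p6 build. They are shown because the 2 cyclic AMP enzymes moved in opposite directions. The other reason was a string match to a clock element, already found in 1 of the 3. Each line gives the 250 bases before the annotated start, 5′ to 3′ on the strand of the gene, with the E-box CACGTG, the binding element of CLOCK and BMAL1, in capitals. They lie at chr11:7063183-7063432 on the plus strand (Adcy1), chr13:95250337-95250586 on the minus strand (Pde8b) and chr10:88826815-88827064 on the minus strand (Utp20).
Adcy1: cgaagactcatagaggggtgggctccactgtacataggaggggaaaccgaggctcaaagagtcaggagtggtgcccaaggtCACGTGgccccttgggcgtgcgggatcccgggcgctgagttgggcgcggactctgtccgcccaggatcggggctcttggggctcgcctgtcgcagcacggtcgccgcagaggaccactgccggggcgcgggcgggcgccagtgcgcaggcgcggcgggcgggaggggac
Pde8b: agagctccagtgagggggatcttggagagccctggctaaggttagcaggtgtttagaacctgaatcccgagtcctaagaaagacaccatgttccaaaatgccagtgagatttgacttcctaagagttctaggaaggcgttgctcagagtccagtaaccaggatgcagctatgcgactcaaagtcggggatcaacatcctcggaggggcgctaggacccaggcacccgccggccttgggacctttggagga
Utp20: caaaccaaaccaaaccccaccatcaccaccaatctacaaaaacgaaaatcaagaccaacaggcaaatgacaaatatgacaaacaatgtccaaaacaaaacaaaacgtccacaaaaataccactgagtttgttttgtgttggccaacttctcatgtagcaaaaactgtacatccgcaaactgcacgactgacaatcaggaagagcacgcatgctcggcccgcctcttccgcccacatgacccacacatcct
The E-box of Adcy1 begins 169 bases before the RefSeq start, which lies 56 bases from the start in the Gencode annotation. CACGTG was present in 6.02% of 32851 RefSeq promoter windows of that length, and was not in those of Pde8b or Utp20. The D-box TTATGTAA (0.819% of windows) and the cyclic AMP response element TGACGTCA (1.55%), searched on both strands, were in none of the 3. The hypoxia response core ACGTG (16.6%) was searched too, and Adcy1 held 2 matches, both within the bases of its E-box. The promoters of Hk2 and of the clock gene Rorb were also searched. Neither held CACGTG, while Hk2 held 2 matches of the hypoxia response core and Rorb held none. A match is a string of letters and was not tested as a binding site.

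Egr3 had the largest difference and the smallest p of the 4 calls. The gene lies at chr14:70077203-70082614 on the plus strand (GRCm38). Its normalised read counts were 53.3, 29.1, 41.4, 59.4 and 122.7 in ZT1 replicates 1 to 5 and 24.6, 14.5, 18, 22.7 and 5.38 in ZT5 replicates 1 to 5. Every ZT1 library stood above every ZT5 library, the highest of all was ZT1 replicate 5, and the lowest was ZT5 replicate 5. Egr3 fell 3.64-fold (log2 difference -1.87, SE 0.311, edgeR adjusted p = 0.00345). Without ZT1 replicate 5 the difference was -1.45 and the adjusted p 0.131, so this call rested on that library, which also held the most blood RNA; the part of that in the result was not tested. In control retinas the difference was -0.89 (edgeR adjusted p = 0.145), and the 2 genotypes differed at an unadjusted p of 0.0269 and an adjusted p of 1. Across the day, diabetic Egr3 was 61.2 at ZT1 and lay between 14.2 and 20.9 in the mean at the other 5 times, whereas the control means were 46.1 at ZT1, 24.7 at ZT5 and 40.4 at ZT9.

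Pde8b was lower at ZT5 by a smaller amount with a tight spread. The gene lies at chr13:95024454-95250336 on the minus strand and overlaps 2 predicted loci, Gm16243 and Gm48420, from which its reads may not be separable because the strand setting of the counting is not given in the sources used here. Its counts were 2160, 2136, 2337, 2405 and 2457 at ZT1 and 1696, 1931, 1691, 1886 and 1969 at ZT5. All 5 ZT5 libraries lay below the lowest ZT1 library. Pde8b fell by 20.2% (log2 difference -0.33, SE 0.0590, edgeR adjusted p = 0.00939). The adjusted p was 0.0771 without ZT1 replicate 4, 0.131 without ZT1 replicate 5, 0.0537 without ZT5 replicate 1 and 0.13 without ZT5 replicate 3, with differences of -0.30 to -0.31. The same decline was called in control retinas, at -0.32 (adjusted p = 0.00108), and the difference between genotypes was -0.01 (95% interval -0.17 to 0.16). The diabetic mean was lowest at ZT5 (1835) and highest at ZT17 (2949).

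Adcy1 was the only clock-controlled gene of the retina, of 6 listed and tested, to pass. It lies at chr11:7063489-7178506 on the plus strand. Its counts were 7676, 7901, 7512, 7387 and 6525 at ZT1 and 8640, 8990, 9293, 9528 and 9280 at ZT5, again with no overlap. The lowest value belonged to ZT1 replicate 5. Adcy1 rose by 23.5% (log2 difference 0.30, SE 0.0616, edgeR adjusted p = 0.0405). Without ZT1 replicate 5 the difference was 0.26 and the adjusted p 0.420, and of the 10 libraries only ZT1 replicate 2 could be left out without losing the call. The control difference was 0.20 (adjusted p = 0.11), and the genotypes differed by 0.11 (95% interval -0.06 to 0.28). In the diabetic day profile the mean went from 7400 at ZT1 to 9648 at ZT13 and was 7700 at ZT21.

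Utp20, at chr10:88746607-88826804 on the minus strand, had counts of 600, 601, 559, 556 and 512 at ZT1 and 707, 677, 806, 705 and 793 at ZT5. The ZT5 libraries were all above the ZT1 libraries. Utp20 rose by 30.3% (log2 difference 0.38, SE 0.0775, edgeR adjusted p = 0.0405), and it was also called in control retinas, at 0.29 (adjusted p = 0.0420). Without ZT1 replicate 5 the diabetic difference was 0.35 and the adjusted p 0.420, and the call was kept only when ZT1 replicate 2 or ZT5 replicate 2 was the library left out. Its diabetic means were 565.5 at ZT1, 737.6 at ZT5, 766.1 at ZT9 and 464.1 at ZT21.

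**Figure D1:**
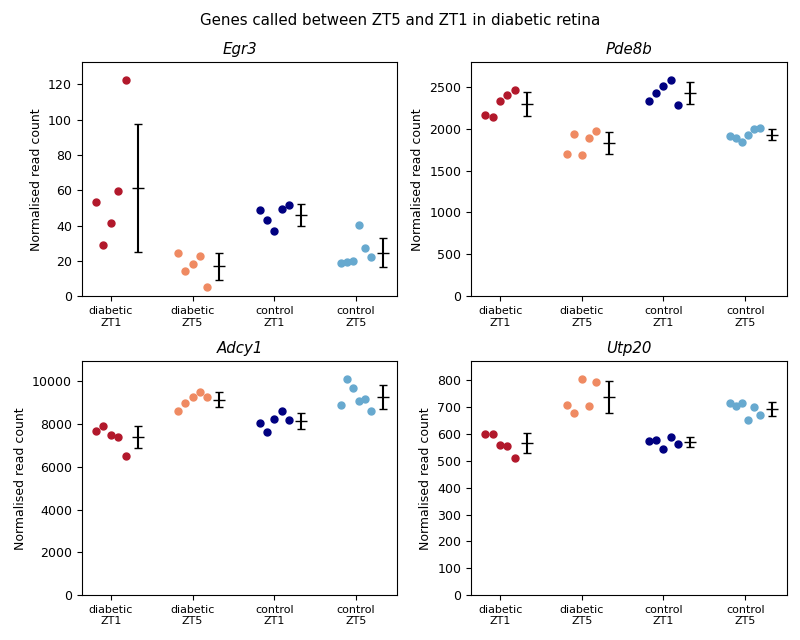
Normalised read counts (vertical axes from 0) of the 4 genes called between ZT5 and ZT1 in diabetic retina, with each point 1 library and the black bar the mean ± SD (n = 5, and n = 6 for control ZT5). The diabetic libraries of the 2 times do not overlap in any panel, and Egr3 ranges from 29.1 to 122.7 at ZT1.

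**Figure D2:**
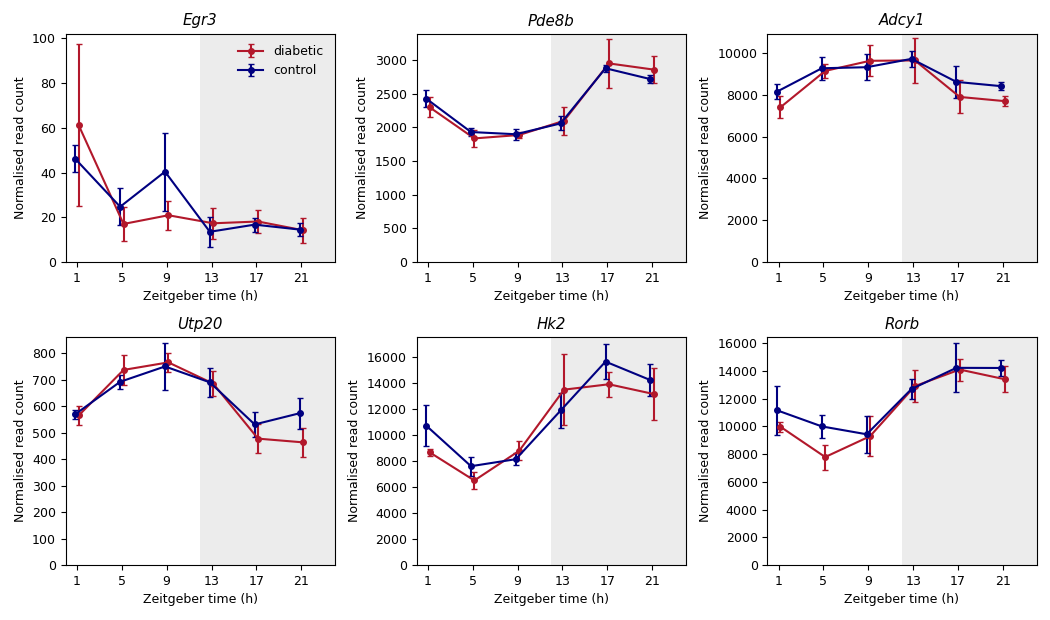
Mean normalised read count ± SD against zeitgeber time in hours (n = 4 to 6 libraries a point, dark phase shaded) for the 4 called genes, Hk2 and Rorb in both genotypes. Diabetic Pde8b, Hk2 and Rorb were at their lowest mean at ZT5, whereas Utp20 and Adcy1 were higher at ZT5 than at ZT1 and lower at ZT17 than at ZT13.

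The pair of cyclic AMP enzymes among 4 calls led to a look at the other members of those families, chosen after these values were seen. Of 24 adenylyl cyclases and cyclic AMP phosphodiesterases, 23 were tested, and none but Adcy1 and Pde8b passed. Of the 21 others, 1 was higher and 2 lower at an unadjusted p under 0.05, where 1.88% of all genes were higher and 2.1% lower, and their median log2 difference was -0.004. Pde8a, the close relative of Pde8b, had a difference of -0.23 (SE 0.0793, edgeR adjusted p = 0.818). Pde10a, a phosphodiesterase for both cyclic nucleotides, had counts of 575 to 655 at ZT1 and 726 to 985 at ZT5, with a difference of 0.50 (SE 0.141, edgeR adjusted p = 0.483).

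The immediate early genes as a list lay below 0. Of 22 members 19 were tested, 18 had a fitted difference below 0 (48.9% of all genes did; Nr4a2 and Dusp1 were not below 0 in limma-voom), and the median was -0.49 against 0.003 over all genes. Only Egr3 passed after adjustment. At an unadjusted p under 0.05, 8 members were lower and none higher, where 2.1% of all genes were lower. The 8 were Egr3, Nr4a3, Fosl2, Nr4a1, Atf3, Junb, Egr4 and Npas4, which are transcription factors of the early growth response, nuclear receptor, AP-1 and neuronal PAS families.

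Nr4a3, an orphan nuclear receptor, was with Egr3 one of 2 members whose libraries did not overlap (0.565% of all genes were lower without overlap). Its counts were 153.6, 114.9, 130.0, 191.3 and 183.6 at ZT1 and 102.3, 91.5, 60.6, 67.3 and 36.8 at ZT5. ZT5 replicate 5 was again the lowest library. The difference was -1.11 (SE 0.316, edgeR adjusted p = 0.485), close to the -1.25 of control retinas, which passed there (adjusted p = 0.0299). Nr4a1, its relative, had 513.8 to 902.2 at ZT1 and 231.5 to 659.0 at ZT5 (difference -0.81, SE 0.265, edgeR adjusted p = 0.728). Fosl2, an AP-1 subunit, had 179.5 to 310.4 at ZT1 and 93.3 to 201.7 at ZT5 (difference -0.65, SE 0.189, edgeR adjusted p = 0.486), and its control difference of -1.05 passed (adjusted p = 0.000798).

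The best known members, Egr1 and Fos, had overlapping ranges and did not pass. Egr1, a zinc finger factor, ranged from 422.4 to 1396 at ZT1 and from 244.9 to 884.3 at ZT5. Both ranges overlapped widely, and the difference was -0.85 (SE 0.593, edgeR adjusted p = 1). Fos, the AP-1 founder, ranged from 290.8 to 490.3 at ZT1 and from 163.3 to 493.3 at ZT5 (difference -0.61, SE 0.374, edgeR adjusted p = 1). With the 10 diabetic libraries alone, the edgeR unadjusted p was 0.00975 for Egr1 (SE 0.297) and 0.0138 for Fos (SE 0.226). Neither passed after adjustment there (edgeR adjusted p = 0.884 and 0.961). The values of Jun (-0.05), Nr4a2 (-0.06) and Ier5 (0.04) lay closest to 0. For the 19 members the control median was -0.41, with 2 called lower (0.34% of all genes), and 10 members lower at an unadjusted p under 0.05 (4.56% of all genes in control retinas).

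**Figure D3:**
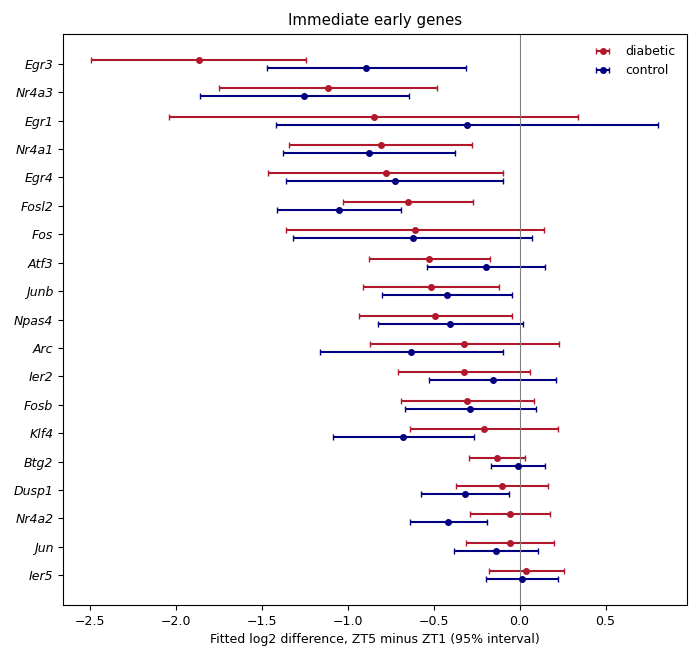
Fitted log2 difference, ZT5 minus ZT1, with its 95% interval from the edgeR fit for the 19 immediate early genes tested, in diabetic (red) and control (blue) retinas, ordered by the diabetic value. In diabetic retina 18 of the 19 points lie left of 0 and 8 intervals exclude it, and the diabetic and control intervals overlap for every gene.

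The clock itself held no call. Of 6 repressors none passed, and Per2 was the 1 with an unadjusted p under 0.05 (2.1% of all genes were lower). Its counts were 714.7, 634.3, 758.3, 647.1 and 743.5 at ZT1 and 559.6, 507.3, 573.4, 630.1 and 634.3 at ZT5, so that the groups touched at 634.3. The difference was -0.27 (SE 0.129, edgeR adjusted p = 1). Per1 had -0.15 (SE 0.150), Per3 -0.09, Cry1 -0.12, Cry2 0.02 and Ciart 0.26, none with an interval that excluded 0. Cry1 was called lower in control retinas (-0.30, edgeR adjusted p = 0.0343), and the 2 genotypes were not shown to differ (unadjusted p = 0.0916).

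Among 9 clock activators and nuclear receptors none passed. Rorb, the retinoid-related receptor needed for rod development and expressed throughout the retina, lies at chr19:18930605-19111196 on the minus strand. Its counts were 9928, 9892, 10458, 9480 and 10098 at ZT1 and 7335, 8813, 8480, 6568 and 7745 at ZT5. No ZT5 library reached the ZT1 range, and the fitted difference was -0.36 (SE 0.0958, edgeR adjusted p = 0.418). With the trend of counts on GC content and gene length removed, the difference was -0.35 and Rorb passed (adjusted p = 0.00796). The core genes were close to 0, with Arntl at -0.04 (95% interval -0.18 to 0.10), Clock at 0.07, Nr1d1 at -0.10 and Nr1d2 at 0.02. All 6 clock output factors, Dbp, Tef, Hlf, Nfil3, Bhlhe40 and Bhlhe41, lay between -0.15 and 0.13 with none at an unadjusted p under 0.05. Of the clock-controlled genes beside Adcy1, Drd4, the dopamine receptor of photoreceptors, had -0.26 (SE 0.132) and Plekhb1 -0.16 (SE 0.0871), both with intervals that reached 0.

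**Figure D4:**
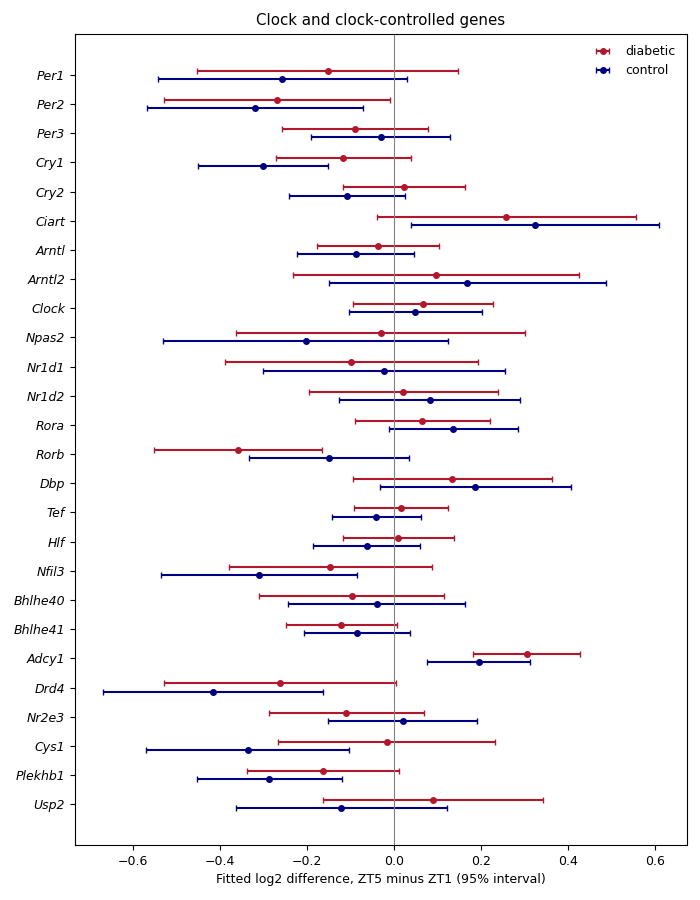
Fitted log2 difference, ZT5 minus ZT1, with its 95% interval from the edgeR fit for clock and clock-controlled genes in diabetic (red) and control (blue) retinas. In diabetic retina the interval excludes 0, among the genes plotted, for Per2, Rorb and Adcy1, and of these Adcy1 alone passed after adjustment.

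In glucose metabolism the difference with the smallest p was that of Hk2. Hk2, the hexokinase that commits glucose to glycolysis in photoreceptors, lies at chr6:82725025-82774454 on the minus strand. Its counts were 8647, 8408, 8823, 8460 and 9049 at ZT1 and 5546, 6379, 6540, 6916 and 7153 at ZT5. The gap between the groups was wider than the range at ZT1. The fitted difference was -0.42 (SE 0.0969), yet the adjusted p was 0.234 in edgeR with all 58 libraries, against 0.0188 with the 10 diabetic libraries alone and 0.00841 in limma-voom. In control retinas Hk2 was called lower, at -0.49 (adjusted p = 0.00214), and the difference between genotypes was 0.07 (SE 0.134). Pfkfb3, which makes the activator of phosphofructokinase, had 784.8 to 885.4 at ZT1 and 574.3 to 756.7 at ZT5 (difference -0.35, SE 0.0880, edgeR adjusted p = 0.305). In limma-voom its difference was -0.37 and it passed (adjusted p = 0.0426).

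Of 22 genes of glycolysis and lactate transport, all tested, 2 had an unadjusted p under 0.05, both lower (2.1% of all genes were), and the median was -0.04. Beside Hk2 the other was Slc16a3, the lactate exporter MCT4, with 559.0 to 750.3 at ZT1 and 406.3 to 661.0 at ZT5 (difference -0.37, SE 0.137, edgeR adjusted p = 0.966), which was called lower in control retinas at -0.58 (adjusted p = 0.0148). Ldha, lactate dehydrogenase A, had -0.08 (SE 0.0722), and Slc2a1, the glucose transporter GLUT1, had -0.07 (SE 0.0977). In control retinas the median of the list was -0.23, with 5 genes called lower (0.34% of all genes) and 14 lower at an unadjusted p under 0.05 (4.56%). For the list as a whole the difference between genotypes was not tested. Ldha was among its members called in control retinas (-0.28, edgeR adjusted p = 0.0329), and its genotype difference had an unadjusted p of 0.0442. Of 20 hypoxia factors and HIF1 targets only P4ha1, a collagen prolyl hydroxylase, had an unadjusted p under 0.05 and was lower (2.1% of all genes were), with 1199 to 1386 at ZT1, 970.8 to 1156 at ZT5 and a difference of -0.31 (SE 0.0870, edgeR adjusted p = 0.485). Vegfa, the vascular growth factor of that list, had -0.16 (SE 0.0844). P4ha1 was called lower in control retinas, at -0.42 (edgeR adjusted p = 0.00414).

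No gene of the photoreceptor lists passed. None of 10 rod and 10 cone phototransduction genes had an unadjusted p under 0.05, and the medians were -0.01 and 0.04. Of 12 genes of photoresponse shut-off, Sag and Arr3, the rod and the cone arrestin, which end the light response, were higher at an unadjusted p under 0.05 (1.88% of all genes were). Sag counts were 36398, 39317, 36549, 38033 and 31313 at ZT1 and 42186, 41711, 44727, 44007 and 43645 at ZT5. No ZT1 library reached the ZT5 range, and the difference was 0.25 (SE 0.0743, edgeR adjusted p = 0.520). Arr3 counts were 2045 to 2811 at ZT1 and 2572 to 3822 at ZT5, with a difference of 0.34 (SE 0.0969, edgeR adjusted p = 0.483). Arr3 was called higher in control retinas, at 0.39 (adjusted p = 0.0299).

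Of 12 photoreceptor transcription factors, 1 was higher and 1 lower with groups that did not overlap, against 0.497% and 0.565% of all genes. Thrb, the thyroid hormone receptor of cones, had 1465 to 1691 at ZT1 and 1693 to 1882 at ZT5 (difference 0.15, SE 0.0519, edgeR adjusted p = 0.777). Esrrb, an oestrogen-related receptor of rods, had 6659 to 8107 at ZT1 and 5704 to 6505 at ZT5 (difference -0.27, SE 0.0961, edgeR adjusted p = 0.873). All 13 outer segment genes tested stayed between -0.09 and 0.11.

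The pigment epithelium is the layer behind the photoreceptors that recycles retinal and from which a dissected retina is peeled. The summed level of 9 markers was 555, 904, 807, 690 and 503 in ZT1 replicates 1 to 5 and 281, 347, 377, 315 and 362 in ZT5 replicates 1 to 5. The 2 sets of sums did not overlap, with every ZT5 sum below every ZT1 sum. Of 8 markers tested none passed in the edgeR fit of 58 libraries. Their median difference was -0.94, 6 were lower at an unadjusted p under 0.05 (2.1% of all genes), and for 4, Ttr, Lrat, Tyrp1 and Pmel, the groups did not overlap (0.565% of all genes were lower without overlap). The defining marker Rpe65, the isomerase of the visual cycle, was above 0 in all 10 libraries, with 60.0 to 164.8 at ZT1 and 30.0 to 72.5 at ZT5 (difference -0.95, SE 0.442). The ranges also overlapped for Rdh5 (-0.63), Slc26a7 (-0.40) and Best1, a chloride channel, which differed in the other direction (9.53 ± 5.43 at ZT1 and 12.9 ± 4.42 at ZT5, SD, n = 5, difference 0.37, SE 0.346). Only Mlana, the ninth marker, was at 0 in some of the libraries, 2 of 10. In control retinas the sums were 301.5 to 1101 at ZT1 and 442.4 to 1428 at ZT5 and overlapped, and the marker median was 0.295.

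Which genes passed depended on the libraries that set the spread. When only the 10 diabetic libraries were fitted, edgeR called 10 genes (0.0523%), 9 lower (0.0471%) and 1 higher (0.00523%), and none of them was among the 4 above. Ttr, Ptgds, Thbs1, Dct, Rgr, Hk2, Tyrp1, Sik2 and Irf7 were lower and Pde10a higher, and these were named after their values were seen. Ttr (transthyretin), Rgr (an opsin), Dct and Tyrp1 (melanin synthesis) and Ptgds (prostaglandin D synthase) are abundant in pigmented layers of the eye.

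Ttr counts were 289.1, 415.5, 262.4, 353.2 and 230.6 at ZT1 and 123.1, 140.4, 150.7, 188.2 and 174.0 at ZT5. The highest ZT5 library lay below the lowest ZT1 library, with a difference of -0.99 in both fits (adjusted p = 0.817 in edgeR with 58 libraries and 0.0188 with 10). Dct had 65.1 to 258.9 at ZT1 and 21.7 to 60.1 at ZT5, a difference of -1.94 (SE 0.747). Tyrp1 had 27.7 to 156.5 at ZT1 and 8.11 to 20.8 at ZT5, a difference of -2.14 (SE 0.723). The SEs of Dct and Tyrp1 are of the fit of 58 libraries. Both groups were apart for these genes as well, and the same was true of Ptgds, with 445.9 to 894.8 at ZT1 and 298.4 to 358.9 at ZT5, and of Rgr, with 267.5 to 562.3 and 135.4 to 241.9. In the fit of 58 libraries the adjusted p was 1 for Dct and 0.734 for Tyrp1, with edgeR.

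Thbs1, Irf7 and Sik2 completed the 10. Thbs1, the matrix protein thrombospondin 1, had 107.9 to 178.8 at ZT1 and 55.6 to 91.8 at ZT5 (difference -1.05, SE 0.275). Irf7, an interferon regulatory factor, had 184.2 to 331.4 at ZT1 and 131.0 to 181.9 at ZT5 (difference -0.78, SE 0.191), and the control difference of -0.76 passed (edgeR adjusted p = 0.0311). Sik2, a salt-inducible kinase, had 2030 to 2627 at ZT1 and 1666 to 1905 at ZT5 (difference -0.40, SE 0.0957), and it too was called in control retinas, at -0.45 (edgeR adjusted p = 0.00477). These SEs are of the fit of 58 libraries, where the diabetic edgeR adjusted p was 0.352 for Thbs1 and 0.296 for Irf7 and Sik2. With the 10 libraries alone the SEs were 0.165 for Thbs1, 0.139 for Irf7 and 0.0696 for Sik2. Without ZT1 replicates 3 and 5 the fit of diabetic libraries kept 4 of the 10 calls, Ttr, Rgr, Thbs1 and Ptgds. Without ZT5 replicate 2 it made no call.

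**Figure D5:**
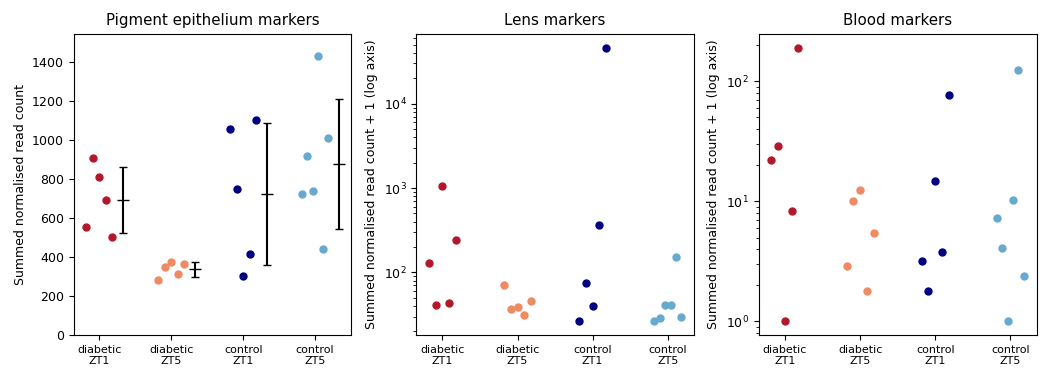
Summed normalised read counts of markers of the pigment epithelium (linear axis from 0, black bar the mean ± SD), lens and blood (1 added, log axes), with each point 1 library and the 4 groups along the horizontal axis (n = 5, and n = 6 for control ZT5). Diabetic pigment epithelium sums fall in 2 ranges, 503 to 904 at ZT1 and 281 to 377 at ZT5, while the control ranges overlap, and among diabetic libraries ZT1 replicate 3 is the highest for lens markers and ZT1 replicate 5 for blood markers.

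No gene passed on the lists of heat shock proteins, endoplasmic reticulum stress, ribosomal proteins, complex I, splicing factors or replication histones. Of 22 heat shock proteins only Hspa1a (HSP70) had an unadjusted p under 0.05 (2.1% of all genes were lower), with 397.2 to 488.6 at ZT1, 296.1 to 408.7 at ZT5 and a difference of -0.24 (SE 0.11, edgeR adjusted p = 1). Of 21 genes of the endoplasmic reticulum stress response the only one was Xbp1. In control retinas 4 heat shock proteins, Hspa1a among them, and 5 genes of the endoplasmic reticulum list were called lower (0.34% of all genes). At an unadjusted p under 0.05, 11 and 8 were lower there (4.56%). The list medians were -0.21 and -0.15 in control retinas and -0.05 and 0.003 in diabetic ones. For these lists the difference between genotypes was not tested. For 75 cytosolic ribosomal proteins and 36 complex I subunits the diabetic medians were 0.02 and 0.06, with none at an unadjusted p under 0.05. The 27 splicing factors had none either, although 22 were below 0, and 21 of 21 replication histones tested were below 0 (48.9% of all genes were) with 1 at an unadjusted p under 0.05. Of the 2 cold-inducible RNA-binding proteins, Cirbp had 0.18 (SE 0.0839, edgeR adjusted p = 1) and Rbm3 0.06 (SE 0.0900). Cirbp was called higher in control retinas, at 0.46 (edgeR adjusted p = 0.00108). Its genotype difference was -0.28 (edgeR unadjusted p = 0.0187) and did not pass after adjustment.

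The stress, growth and lipid lists held no call, and their counts at an unadjusted p under 0.05 stand beside 1.88% of all genes higher and 2.1% lower. Of 15 glucocorticoid response genes, Sgk1, a kinase of ion transport, had 5604 to 6716 at ZT1 and 4693 to 5929 at ZT5 (difference -0.21, SE 0.0700, edgeR adjusted p = 0.728). Of 24 cell cycle and DNA repair genes, 1 was higher and 3 lower at an unadjusted p under 0.05, and Gadd45b, a stress-induced regulator, had the smallest (difference -0.55, SE 0.182, edgeR adjusted p = 0.734). Of 22 cholesterol synthesis genes, 2 were higher at that level, with Hsd17b7 at 0.26 (SE 0.115), and the list median was 0.08. Of 17 genes of glucose sensing and insulin action, Cpt1a, the carnitine transferase of fatty acid entry into mitochondria, had 0.14 (SE 0.0644) and was the 1 higher member, with 1 lower. Among 14 gliosis genes tested none had an unadjusted p under 0.05, 11 had a fitted difference below 0 (48.9% of all genes did), and the median was -0.18. The summed level of the 16 listed was 5248 to 5471 at ZT1 and 4590 to 5227 at ZT5, without overlap, and in control retinas the sums overlapped (4806 to 6288 and 4682 to 5337). Stat3, a transcription factor of cytokine signalling, was the 1 member lower without overlap (0.565% of all genes), with 1028 to 1117 at ZT1 and 974.7 to 1022 at ZT5 (difference -0.09, SE 0.0599). Serpina3n, the member with the smallest p, had 70.2 ± 24.7 at ZT1 and 35.2 ± 11.4 at ZT5 (SD, n = 5). Drd5, the smallest p of 8 dopamine and melatonin genes tested, had -0.35 (SE 0.170), and Mthfd2 of 16 ATF4 targets had 0.24 (SE 0.125), both with an edgeR adjusted p of 1. The lists of clock kinases and ligases, NRF2 targets, nuclear long non-coding RNAs, retinal neuropeptides and mitochondrial genome transcripts (7 of 13 tested) held no gene at an unadjusted p under 0.05, with medians between -0.06 and 0.05. Of 22 lysosome and autophagy genes, Atg7, which drives autophagosome formation, was the only one (difference 0.14, SE 0.0709, edgeR adjusted p = 1).

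The same interval in control retinas gave 154 calls (0.805%), 89 higher (0.465%) and 65 lower (0.34%), with 2070 genes at an unadjusted p under 0.05 (10.8%). Of the 4 diabetic calls, Pde8b and Utp20 were among them. One control ZT1 library had a lens marker sum of 46358, against 25.6 to 368.2 in the other 4, and without it 67 genes were called in control retinas, Pde8b among them but not Utp20. With 1 of the 11 control libraries left out the control calls numbered 40 to 171, the fewest without ZT5 replicate 1, and Pde8b and Hk2 passed each time. They numbered 40 to 101 without any 1 of the 5 ZT1 libraries or of ZT5 replicates 1 to 3, and 119 to 171 without 1 of the others. Among these fits Utp20 kept its control call only without ZT5 replicate 4 or 5. Arr3 kept its own only without ZT1 replicate 3 or ZT5 replicate 4, 5 or 6. The difference between genotypes was tested directly, as the diabetic change minus the control change, and no gene passed in edgeR, with 680 (3.56%) at an unadjusted p under 0.05. DESeq2 and limma-voom each called 1 gene, Kif4.

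Kif4, a motor protein of dividing cells and axons, had the smallest p for this difference. Its diabetic counts were 49.1, 51.2, 77.1, 64.5 and 69.2 at ZT1 and 104.1, 94.2, 131.1, 90.0 and 94.2 at ZT5. Its control counts were 26.6 to 52.0 at ZT1 and 141.0 to 186.6 at ZT5, so that all diabetic libraries lay between the 2 control groups except 2 that fell within the ZT1 range of controls. The fitted differences were 0.70 (SE 0.195) in diabetic and 2.01 (SE 0.193) in control retinas, and their difference was -1.31 (SE 0.274, edgeR adjusted p = 0.261). Kif4 overlaps Pdzd11 in the annotation.

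The next 4 by p were Xbp1, Pctp, Lrat and Perm1. Xbp1, the transcription factor of the unfolded protein response, had 812.8, 883.6, 737.6, 773.2 and 733.4 at ZT1 and 652.3, 658.6, 701.2, 693.4 and 717.7 at ZT5 in diabetic retina. The groups did not overlap, but the diabetic difference of -0.20 (SE 0.0925) was smaller than the control one of -0.68 (SE 0.0882), and the genotype difference was 0.48 (SE 0.128, unadjusted p = 0.000477, edgeR adjusted p = 1). Lrat, the retinol acyltransferase of the pigment epithelium, had -0.93 in diabetic and 0.91 in control retinas. Pctp, a phosphatidylcholine carrier, had -0.28 and 0.62, and Perm1, a muscle regulator of mitochondrial genes, had -0.26 and 0.66. None of these 3 had an adjusted p under 1 for the genotype difference in edgeR.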

How the data were processed

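The deposited file held raw counts per gene, whole numbers that the authors had neither normalised nor filtered, for 58 retinas. The authors aligned paired reads to GRCm38.p5 (Gencode M15) with STAR 2.7.4a and counted them with HTSeq 0.11.1, and the submitters' processing notes also name DESeq2 1.26.0. Whether counting used strand is not given in the sources used here, so a gene and an overlapping one may share reads. Columns were assigned to genotype, time and replicate by title. Total counts were 7773117 to 22147398 per library (median 15406440), which leaves genes near the minimum imprecise.

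Genes with a median above 4 normalised counts (DESeq2 1.42.0 size factors) over all 58 libraries were kept, 19120 in number. One edgeR 4.0.16 quasi-likelihood fit of the 12 groups of genotype and time, with TMM factors in R 4.3.3, gave the diabetic ZT5 minus ZT1 contrast, the same in control retinas and their difference, with Benjamini-Hochberg adjustment over all genes tested and a threshold of 0.05. An alternative used limma 3.58.1. Others changed the size factors, the filter, the libraries fitted, a block for replicate number and a GC and length correction. The code was tested on simulated data. Coordinates came from Gencode M21, to which 47976 of 52459 symbols matched, and promoters from RefSeq (GRCm38.p6), in which all genes sought but Egr3 were found. Tables were made with Python 3.11.15 and pandas 2.3.3.

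The paper's methods describe the retinas as biological replicates, 1 retina a library. Library pairs within the 2 groups differed by more than sampling noise (chi-square per degree of freedom at least 1.94 over 20 pairs), so none was counted as a duplicate. Named genes were all members of 4 clock lists and of the cold-inducible list, for each other pathway list the 3 smallest p among calls or the 1 smallest where none passed, up to 10 calls in each direction and the 5 genes with the smallest p for the genotype difference. One listed gene is not reported here. Other genes were named after their values were seen. The members and lists were chosen with earlier results of these data known.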

Additional observations from a re-analysis of the deposited data

Results flagged for a closer look

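In 13 of 234 groups of 5 diabetic libraries looked at, 1 library stood far from the other 4, with a gap to the nearest above 0.71 of the range of the group. Chance gives about 1 such group in 20. Of the 13, 6 were high values of ZT5 replicate 4, the library that also had the highest rod marker sum. There Nr1d1 reached 4314 against 2903 to 3244 in the other ZT5 libraries, Dbp 2259 against 1629 to 1802 and Usp2 3304 against 2274 to 2572, all 3 under clock control. In the same library Plekhb1 reached 10459 against 8283 to 8641, Impg1, a matrix protein around photoreceptors, 5890 against 4776 to 5076, and Slc2a1, the glucose transporter, 3331 against 2285 to 2518. The values of these 6 genes in the report include this library.

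At ZT5, Bhlhe40 was lowest in replicate 5, at 627.1 against 828.0 to 906.1. At ZT1, Cry2 was highest in replicate 1, at 2472 against 2135 to 2166, and so was Pfkfb3, at 885.4 against 784.8 to 813.5. Rbm3 was lowest in ZT1 replicate 4, at 693.3 against 838.5 to 867.2, and Perm1 highest in ZT1 replicate 5, at 49.8 against 38.4 to 40.3. The sum of lens markers was 1049 in ZT1 replicate 3 against 40.2 to 239, and the sum of blood markers was 190 in ZT1 replicate 5 against 0 to 27.7. The cause was not tested for any of them.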

How the results depend on the processing

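The count of 4 calls became 14 in limma-voom, 1 with no filter on low counts, 10 with the 10 libraries alone, which shared none of the 4, and 0 without ZT1 replicates 3 and 5 (chosen after seeing the data). It was 0 to 4 with 1 library left out, 0 without ZT1 replicate 5, 1 without ZT1 replicate 4 or ZT5 replicate 3 and 2 without ZT1 replicate 1 or 3 or ZT5 replicate 1, 4 or 5. DESeq2 gave 4, DESeq2 size factors 3 and the GC and length correction 5. Of 21 alternatives, Egr3 passed in 18, Pde8b in 14, Utp20 in 10 and Adcy1 in 8. Egr3 was lost with the 10 libraries alone (adjusted p = 0.0770 in edgeR), without ZT1 replicate 5 (0.131) and without ZT1 replicates 3 and 5 (0.475). The cause was not tested.

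Replicate numbers were not taken as pairs, since what equal numbers share is not given in the sources used here. The correlation of same-numbered deviations was 0.0784 to 0.332, always positive, against -0.41 to 0.298 for unlike numbers. Of 10 libraries, 4 correlated best with their own number. Whether equal numbers mark a shared factor cannot be told from these values. With a block for replicate number 6 genes passed, and 36 with the block in the 10 libraries alone.

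The genotype difference had 0 calls with each of the 10 diabetic or, added after seeing the calls, 11 control libraries left out (0 to 0), and 1 in DESeq2, in limma-voom, in the 21 libraries alone and in those with the replicate block. The 10 calls of the 10 libraries alone became 0 to 11 with 1 library left out and 4 without ZT1 replicates 3 and 5. They were 0 without ZT5 replicate 2, 4 without ZT1 replicate 5 or ZT5 replicate 5, 5 without ZT1 replicate 3 and 6 without ZT1 replicate 4 or ZT5 replicate 3. These were added after seeing the calls.

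Of 2162 values of 103 named genes under alternatives, 2065 kept direction and side of the threshold, 34 lost a call, 34 gained one and 29, in 13 genes, changed sign, all within 0.042 of 0. Without ZT1 replicates 3 and 5 the sign changed for Cry2 (-0.005), Arntl (0.012), Npas2 (0.023) and Hlf (-0.041). In limma-voom it changed for Cys1 (0.030), Nr4a2 (0.020) and Dusp1 (0.000), and with the GC and length correction for Cys1 (0.001). With 1 library left out, values were -0.009 to 0.066 for Cry2, -0.115 to 0.028 for Npas2, -0.023 to 0.062 for Nr1d2, -0.013 to 0.050 for Tef, -0.038 to 0.060 for Hlf, -0.059 to 0.028 for Cys1, -0.014 to 0.131 for Usp2, -0.246 to 0.014 for mt-Nd6, -0.131 to 0.030 for Jun, -0.127 to 0.042 for Nr4a2 and -0.021 to 0.100 for Ier5.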
